A study of Mus musculus with 14 samples.

Results

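Intracisternal A-particle (IAP) long terminal repeats, the promoter-bearing ends of a young family of mouse endogenous retroviruses, were followed from the level of the subfamily down to the single insertion in sorted male germ cells lacking DNMT3C. Every transposable element (TE) whose subfamily name begins with IAPLTR was taken, which gave 10 subfamilies and 11429 annotated copies out of 3725827 TE copies in the tables. Of the 10, 8 are long terminal repeats (LTRs), with 9473 copies, and 2, IAPLTR3-int and IAPLTR4_I, are internal parts that share the name. The names were not chosen on their expression.

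RNA sequencing of polyadenylated transcripts covered 14 libraries from testes of mice on a C57Bl6/J background. Spermatogonia (Spg) came from mice at postnatal day 14, sorted as EpCAM-positive, beta-2-microglobulin-negative living cells, with 3 libraries from Dnmt3CKO/KO animals (KO) and 3 from wild-type animals (WT). Spermatocytes (Spc) came from mice older than 20 days, sorted by DNA content, with 4 KO and 4 WT libraries. Collected cells were from littermates. The knockout is present in every cell of the KO animals, and KO germ cells arrest in meiosis, so that the sorted Spc fraction of KO testes lacks the later cells that WT fractions hold. Genotype and cell composition therefore cannot be told apart in Spc, and in these bulk libraries fewer cells of a type and less RNA per cell cannot be told apart.

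An intact IAP provirus has an LTR at each end of an internal part that encodes the viral proteins. Transcription starts in the 5′ LTR and ends in the 3′ LTR, and recombination between both LTRs removes the internal part and leaves a solo LTR. DNMT3C is a rodent DNA methyltransferase that, guided by the piRNA pathway, methylates promoters of young retrotransposons in fetal male germ cells. NRF1, a transcription factor whose site holds CpG dinucleotides and whose binding is sensitive to methylation, is the factor the study followed at these promoters.

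Depth was 4.06e+07 to 5.33e+07 counts per library. TEs took 3.60% to 5.44% of the counts in Spg KO, 2.28% to 3.52% in Spg WT, 5.74% to 8.67% in Spc KO and 1.77% to 2.93% in Spc WT. IAPLTR subfamilies together held 2549 to 18996 counts per library. The Dnmt3c count was 58 to 116 in Spg KO and 53 to 89 in Spg WT, and 52 to 57 in Spc KO and 11 to 28 in Spc WT, where every KO library is the higher, so that the count over the gene does not check the genotype. Marker genes of pachytene spermatocytes summed to 8156 to 15754 CPM (counts scaled to library size) in Spc WT and to 138 to 326 CPM in Spc KO, and all 5 Leydig and all 4 macrophage markers tested were called higher in Spc KO, as were 6145 of 21919 genes.

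The LTR sequences below show how the subfamilies differ in their letters around the NRF1 core site. They were read on the LTR strand from GENCODE M21 transcripts of GRCm38 that run through a copy, since no genome sequence was used here, and each begins at the first base of the LTR and runs for 300 bases. Capitals mark the NRF1 core TGCGCA, which reads the same on both strands, and the cAMP response element TGACGTCA, the site of the CREB and CREM factors, which also reads the same on both strands. The 4 copies were chosen to show LTRs that rose in the KO, an LTR with little difference, and an LTR that was lower.
IAPLTR1_Mm (dup476, chr5:105729096-105729395, minus strand, in a transcript of Lrrc8d): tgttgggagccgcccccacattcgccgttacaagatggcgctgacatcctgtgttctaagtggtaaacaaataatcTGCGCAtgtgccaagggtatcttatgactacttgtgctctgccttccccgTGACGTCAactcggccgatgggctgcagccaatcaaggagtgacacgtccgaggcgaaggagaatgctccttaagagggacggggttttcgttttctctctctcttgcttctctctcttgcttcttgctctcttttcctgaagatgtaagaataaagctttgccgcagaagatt
IAPLTR2_Mm (dup1055, chr13:81086416-81086715, minus strand, in a transcript of Gm18517): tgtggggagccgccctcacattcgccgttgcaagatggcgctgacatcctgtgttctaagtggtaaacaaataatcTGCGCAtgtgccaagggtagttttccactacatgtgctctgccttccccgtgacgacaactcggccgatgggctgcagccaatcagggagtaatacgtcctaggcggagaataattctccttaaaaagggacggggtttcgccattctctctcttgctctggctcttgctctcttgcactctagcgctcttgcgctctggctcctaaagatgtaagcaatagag
IAPLTR2a2_Mm (dup1356, chr16:22035648-22035947, minus strand, in a transcript of Senp2): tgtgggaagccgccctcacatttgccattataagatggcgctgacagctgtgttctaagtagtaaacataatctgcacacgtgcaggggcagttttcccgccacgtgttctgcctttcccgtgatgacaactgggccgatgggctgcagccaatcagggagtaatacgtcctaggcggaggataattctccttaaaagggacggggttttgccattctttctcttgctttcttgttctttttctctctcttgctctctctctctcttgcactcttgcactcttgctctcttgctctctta
IAPLTR3 (dup896, chr10:130442969-130443268, plus strand, in a transcript of Vmn2r86): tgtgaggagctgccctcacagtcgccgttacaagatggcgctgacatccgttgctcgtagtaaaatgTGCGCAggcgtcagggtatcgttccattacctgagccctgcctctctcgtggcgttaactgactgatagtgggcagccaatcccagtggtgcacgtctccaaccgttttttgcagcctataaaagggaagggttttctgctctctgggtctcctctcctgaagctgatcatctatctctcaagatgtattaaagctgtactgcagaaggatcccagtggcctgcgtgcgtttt

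The IAPLTR1_Mm copy holds TGCGCA at base 77 and TGACGTCA at base 127. The IAPLTR2_Mm copy keeps TGCGCA at base 77 and has no TGACGTCA, and the IAPLTR3 copy has TGCGCA at base 68. The IAPLTR2a2_Mm copy has neither. Summed over all 14 libraries, reads were 283 in KO and 0 in WT for the IAPLTR1_Mm copy, 18 and 0 for the IAPLTR2_Mm copy, 21 and 17 for the IAPLTR2a2_Mm copy, and 6 and 21 for the IAPLTR3 copy.

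At least 90% of the LTR could be read for 61 copies, 60 of them from transcripts and 1 from a promoter window of RefSeq. Within the first 180 bases TGCGCA was found in 11 of 11 IAPLTR1_Mm copies, 7 of 7 IAPLTR1a_Mm, 8 of 9 IAPLTR2_Mm, 3 of 3 IAPLTR2a, 6 of 7 IAPLTR2b, 3 of 4 IAPLTR3 and 4 of 4 IAPLTR4 copies. It was found in 0 of 16 IAPLTR2a2_Mm copies. Of 32851 gene promoters, 5.90% hold TGCGCA in a window of the same length, against 68.9% of the 61 LTR copies. The IAPLTR2a2_Mm copies carried TGCACA at base 72 to 74 in 16 of 16, a word looked for after the sequences had been seen; 9.06% of promoter windows hold it on either strand. It was also found in 2 of 4 IAPLTR3 copies, between base 144 and 157, in 1 of 9 IAPLTR2_Mm copies, at base 74, and in no copy read of the other 5 subfamilies.

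TGACGTCA was narrower in its distribution. It was found in 8 of 11 IAPLTR1_Mm copies and 3 of 7 IAPLTR1a_Mm copies at base 126 or 127, in 1 of 4 IAPLTR4 copies and in no copy read of the other 5 subfamilies, against 1.54% of promoter windows of 180 bases. CpG density had its lowest medians in IAPLTR4, at 3.44 per 100 bases, and in IAPLTR2a2_Mm, at 3.67, while IAPLTR1_Mm had 5.26, IAPLTR2_Mm 4.74 and IAPLTR3 4.93. These copies lie in annotated transcripts and are a small part of each subfamily, so that they describe themselves, and no relation between a word and a response was tested.

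IAPLTR1_Mm, an LTR of proviruses with the internal part IAPEz-int, had the largest rise of the 10 subfamilies at both stages. Its Spg counts were 7548, 6150 and 6850 in KO and 485, 408 and 443 in WT. The 2 groups do not come near each other, and the level was 14.3-fold higher in KO (log2 fold change 3.83, SE 0.14, adjusted p = 8.42e-05, edgeR quasi-likelihood test with Benjamini-Hochberg adjustment over all genes and TE subfamilies). In Spc it had 8826, 7144, 12018 and 8778 counts in KO and 346, 177, 405 and 259 in WT. The Spc rise was 20.8-fold (log2 fold change 4.38, SE 0.31, adjusted p = 4.51e-06, edgeR), again with no overlap.

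**Figure D1:**
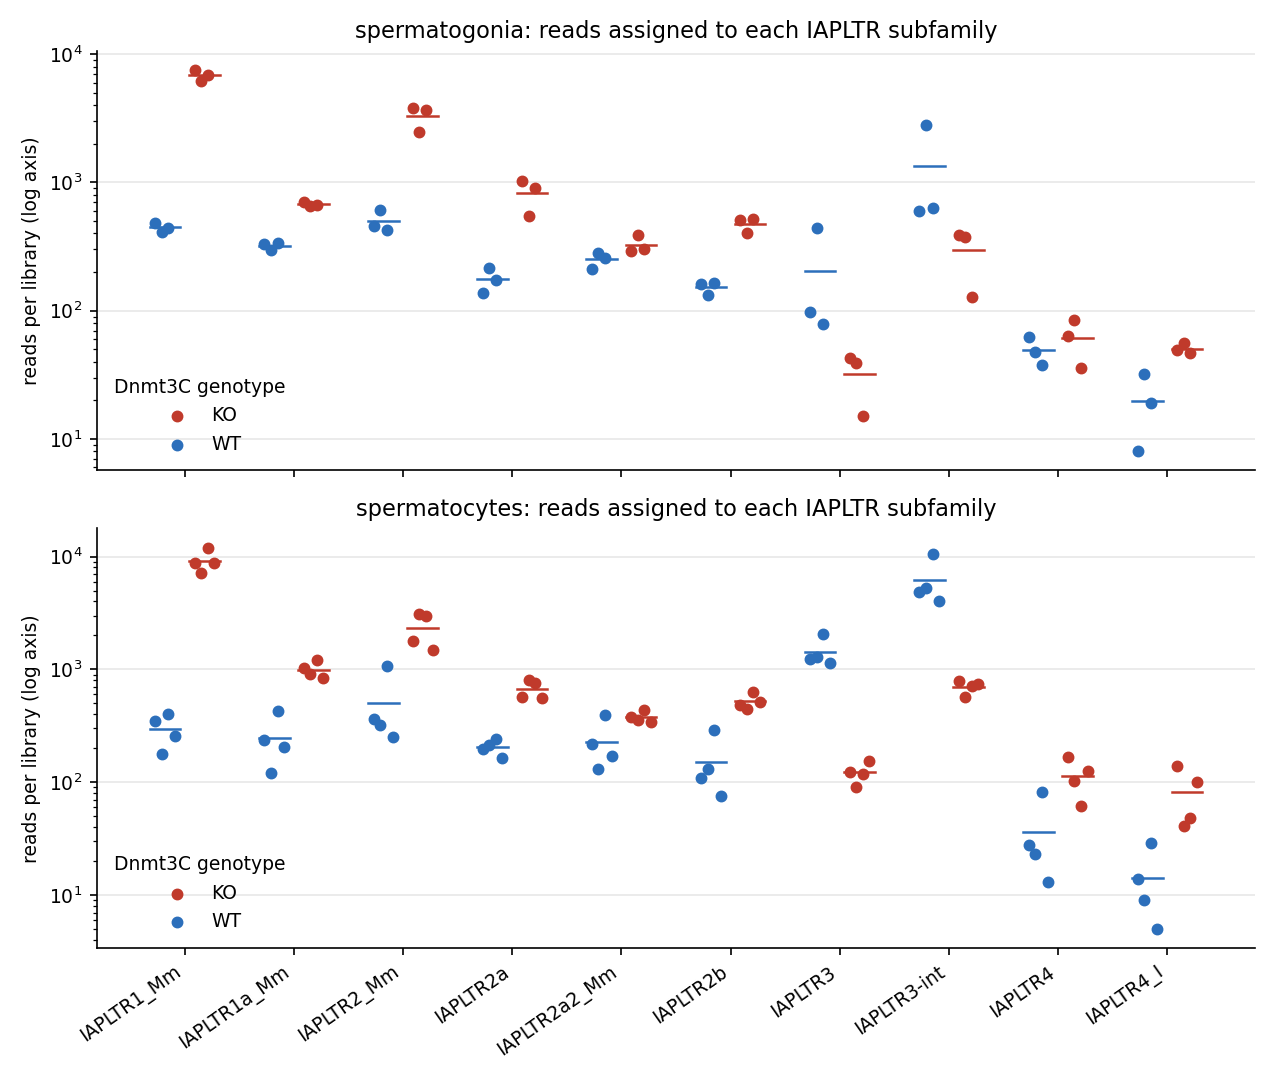
Counts assigned to each IAPLTR subfamily in each library (log axis), for Spg in the upper panel and Spc in the lower, with KO points in red, WT points in blue and a line at each group mean. IAPLTR1_Mm stands highest in KO at both stages, while IAPLTR3 and IAPLTR3-int are the subfamilies whose WT points lie above their KO points.

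IAPLTR1a_Mm, the closest relative of IAPLTR1_Mm by name, had smaller differences. It had 707, 652 and 662 counts in Spg KO and 331, 298 and 335 in Spg WT, a log2 difference of 0.96 (SE 0.21, adjusted p = 0.129, edgeR), which did not pass the threshold of 0.01 although the groups do not overlap. In Spc it had 1032, 901, 1215 and 831 counts in KO and 236, 121, 430 and 207 in WT, and there it rose 2.74-fold (log2 fold change 1.46, SE 0.36, adjusted p = 0.00449, edgeR), a call that was lost without KO replicate 1 or 3 or WT replicate 1 or 4 at adjusted p between 0.0120 and 0.0137. Within a library, where no scaling between libraries enters, the log2 ratio of IAPLTR1_Mm to IAPLTR1a_Mm was 3.34 ± 0.09 (SD, n = 3) in Spg KO and 0.47 ± 0.08 (SD, n = 3) in Spg WT. The same ratio was 3.20 ± 0.19 (SD, n = 4) in Spc KO and 0.33 ± 0.30 (SD, n = 4) in Spc WT. The genotypes thus differed in this ratio by 2.87 in Spg and 2.86 in Spc on the log2 scale.

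The ratio of IAPLTR1_Mm to each of the other 7 LTR subfamilies was higher in KO at both stages with no overlap between genotypes. The smallest difference was over IAPLTR2_Mm, at 1.21 in Spg and 2.59 in Spc (log2). The largest was over IAPLTR3, at 6.27 in Spg and 8.53 in Spc, and in Spg at 5.44 without WT replicate 2. Over 11 ratios in each stage, 9 had groups that do not overlap. With 3 against 3 libraries an exact permutation test cannot go below p = 0.1, and with 4 against 4 it cannot go below 0.0286; after adjustment over the 22 ratios the lowest was 0.0698, so that none passed (two-sided exact permutation tests).

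IAPEz-int, the internal part that goes with IAPLTR1_Mm, was taken as a partner within the library. The log2 ratio of IAPLTR1_Mm to IAPEz-int was −3.46 ± 0.11 (SD, n = 3) in Spg KO and −3.63 ± 0.19 (SD, n = 3) in Spg WT, an overlap (exact permutation p = 0.5). In Spc it was −3.32 ± 0.18 (SD, n = 4) in KO and −3.97 ± 0.41 (SD, n = 4) in WT, with no overlap (exact permutation p = 0.0286, adjusted 0.0698). The ratio of IAPLTR2_Mm to IAPEz-int was lower in KO, with log2 differences of −1.04 in Spg and −1.94 in Spc and no overlap.

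IAPLTR2_Mm, the second most abundant LTR in the KO, had 3797, 2476 and 3675 counts in Spg KO and 454, 606 and 428 in Spg WT. The difference was 2.61 on the log2 scale (SE 0.27), and its adjusted p of 0.0101 by edgeR lay just above the threshold. With replicate number as a block it passed at an adjusted p of 0.00598 (edgeR). Without WT replicate 2, and without the block, it passed at 0.00759 (edgeR). In Spc it had 1786, 3125, 2989 and 1484 counts in KO and 363, 321, 1069 and 254 in WT, and it rose 3.30-fold (log2 fold change 1.72, SE 0.39, adjusted p = 0.00297, edgeR). WT replicate 3 was well above the other WT libraries and still below every KO library. The Spc call was lost without WT replicate 1, 2 or 4, at adjusted p of 0.0114, 0.0106 and 0.0107.

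Of the other subfamilies named IAPLTR2, IAPLTR2a and IAPLTR2b had values in the direction of IAPLTR2_Mm. IAPLTR2a had 1024, 545 and 897 counts in Spg KO and 137, 216 and 172 in Spg WT (log2 difference 2.10, SE 0.34, adjusted p = 0.0575, edgeR), and 574, 812, 761 and 560 in Spc KO against 196, 212, 243 and 165 in Spc WT, where it rose (log2 fold change 1.14, SE 0.27, adjusted p = 0.00393, edgeR). IAPLTR2b had 510, 406 and 514 counts in Spg KO and 160, 133 and 164 in Spg WT (log2 difference 1.54, SE 0.25, adjusted p = 0.0538, edgeR), and in Spc 486, 447, 632 and 516 against 109, 132, 293 and 76 (log2 difference 1.28, SE 0.37, adjusted p = 0.0104, edgeR). Neither has overlapping groups at either stage, yet of these only IAPLTR2a in Spc passed. That call was lost without KO replicate 3 or WT replicate 1 or 4 (adjusted p = 0.0122, 0.0150 and 0.0162, edgeR), and IAPLTR2b in Spc passed without WT replicate 3 (adjusted p = 0.00173, edgeR).

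IAPLTR2a2_Mm, the subfamily whose copies read here lacked TGCGCA, had 290, 388 and 301 counts in Spg KO and 212, 283 and 259 in Spg WT. In Spc it had 376, 358, 433 and 340 counts in KO and 219, 132, 392 and 170 in WT. The Spg counts do not overlap but lie close, and scaled to library size they do overlap, at 4.97 to 6.83 CPM in KO and 3.67 to 5.63 CPM in WT, as do the Spc counts. Log2 differences were 0.25 (SE 0.28, adjusted p = 1.00, edgeR) in Spg and 0.18 (SE 0.34, adjusted p = 0.640, edgeR) in Spc, which do not exceed the spread between libraries.

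IAPLTR4 had low counts, with 36 to 84 in Spg KO and 38 to 62 in Spg WT, and it did not pass in either stage (log2 differences 0.19 and 1.19, adjusted p = 1.00 in Spg and 0.0637 in Spc, edgeR), although in Spc it passed without WT replicate 3 (adjusted p = 0.00946, edgeR). Its internal part IAPLTR4_I had 138, 41, 48 and 101 counts in Spc KO against 14, 9, 29 and 5 in Spc WT and rose 4.13-fold there (adjusted p = 0.00996, edgeR). That call sits at the threshold and was lost without any 1 of 6 of the 8 Spc libraries, at adjusted p between 0.0101 without KO replicate 3 and 0.0344 without KO replicate 1.

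IAPLTR3 and IAPLTR3-int went the other way. In Spc, IAPLTR3 had 123, 91, 119 and 155 counts in KO and 1244, 1292, 2069 and 1147 in WT, and IAPLTR3-int had 783, 565, 719 and 746 in KO and 4810, 5303, 10483 and 4048 in WT. Every WT library lies above every KO library. IAPLTR3 was 17.2-fold lower in KO (log2 fold change −4.10, SE 0.30, adjusted p = 5.59e-06, edgeR) and IAPLTR3-int 12.5-fold lower (log2 fold change −3.65, SE 0.26, adjusted p = 4.76e-06, edgeR).

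In Spg, IAPLTR3 had 43, 39 and 15 counts in KO and 97, 439 and 79 in WT, and IAPLTR3-int had 388, 375 and 127 in KO and 603, 2788 and 637 in WT. The groups do not overlap, but WT replicate 2 is far above the other WT libraries, and neither difference passed (log2 difference −2.86, SE 0.80, adjusted p = 0.264 for IAPLTR3, and −2.38, SE 0.73, adjusted p = 0.343 for IAPLTR3-int, edgeR). Without WT replicate 2 the IAPLTR3 difference was −1.47 (adjusted p = 0.640, edgeR) and that of IAPLTR3-int −1.10 (adjusted p = 0.980, edgeR). DESeq2 called both with all libraries (adjusted p = 0.00277 and 0.00729).

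In Spg, 1 of the 10 subfamilies was called, against 0.760% of the 921 TE subfamilies tested. In Spc 7 were called, against 25.7% of 929 TE subfamilies; IAPLTR1_Mm, IAPLTR1a_Mm, IAPLTR2_Mm, IAPLTR2a and IAPLTR4_I rose, and IAPLTR3 and IAPLTR3-int fell. Without Spc WT replicate 1 or 4, only IAPLTR1_Mm, IAPLTR3 and IAPLTR3-int stayed called, and without Spc KO replicate 3 these and IAPLTR2_Mm did. IAPLTR1_Mm, IAPLTR3 and IAPLTR3-int kept their Spc calls without any single library. Spc replicates 1 and 4 were much alike within each genotype, and with these summed the same 3 stayed called, while IAPLTR1a_Mm, IAPLTR2_Mm, IAPLTR2a and IAPLTR4_I did not pass (adjusted p = 0.0275, 0.0121, 0.0307 and 0.0540, edgeR). Scaled by library totals in place of TMM, the trimmed mean of edgeR, which moves the median gene from 0.11 to 0.79, Spc log2 fold changes were 5.07 for IAPLTR1_Mm, −3.45 for IAPLTR3 and −3.02 for IAPLTR3-int, and IAPLTR2b was called too (1.88, adjusted p = 0.00457, edgeR).

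**Figure D2:**
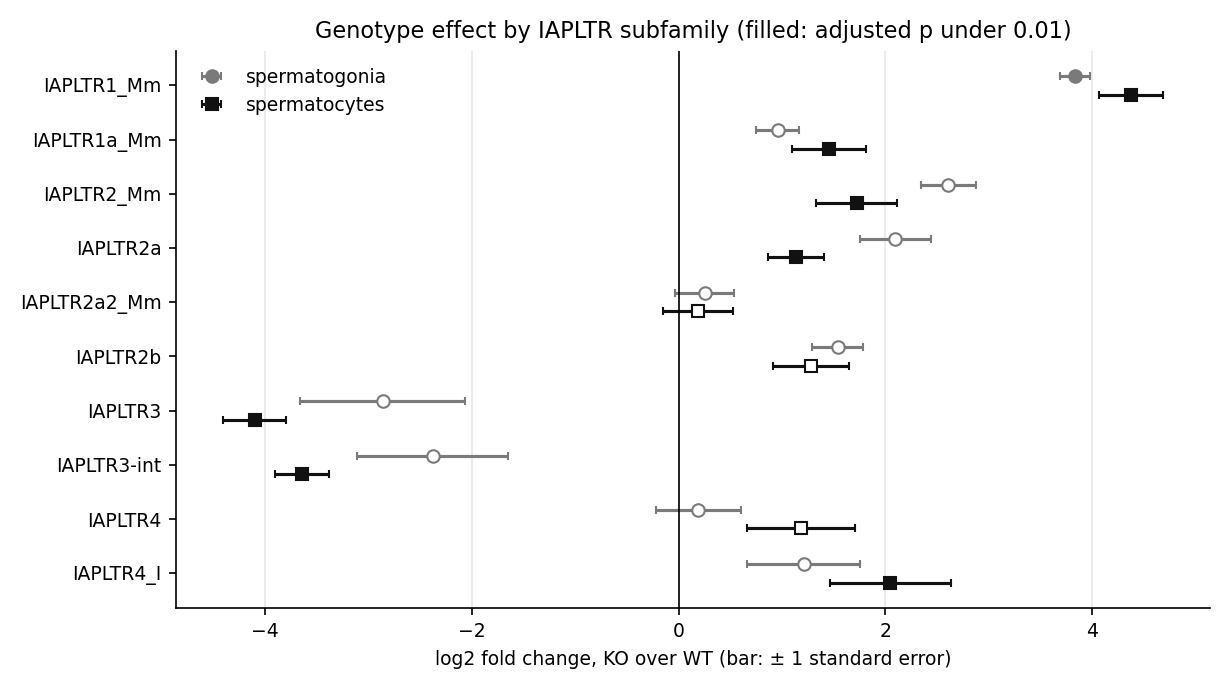
Log2 fold change of KO over WT for each IAPLTR subfamily in Spg (circles) and Spc (squares), with bars of 1 standard error, filled where the edgeR adjusted p is under 0.01. IAPLTR1_Mm lies furthest to the right at 3.83 and 4.38, IAPLTR3 furthest to the left at −2.86 and −4.10, and IAPLTR2a2_Mm near 0 at both stages.

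Whether the genotype effect itself changed between stages was tested with the interaction in a fit of all 14 libraries. None of the 10 subfamilies was called by edgeR, against 6.44% of 978 tested; IAPLTR2a, like 219 of all 978, had an unadjusted p under 0.05 (log2 difference of the effects −1.02, SE 0.41, adjusted p = 0.0551), and DESeq2 called IAPLTR2a alone. IAPLTR1_Mm differed by 0.49 (SE 0.33, adjusted p = 0.242, edgeR). With library totals it differed by 1.21 (adjusted p = 0.0149, edgeR) and IAPLTR2a by −0.28 (adjusted p = 0.638, edgeR), and again neither was called. Without Spg WT replicate 2, IAPLTR3 and IAPLTR3-int were called, IAPLTR3 with a difference of −2.60 (adjusted p = 0.00259, edgeR).

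Between stages of 1 genotype, IAPLTR3 and IAPLTR3-int were the members called in WT. From WT Spg to WT Spc, IAPLTR3 rose 10.6-fold (log2 fold change 3.40, SE 0.61, adjusted p = 2.76e-04, edgeR) and IAPLTR3-int 6.78-fold (adjusted p = 7.84e-04, edgeR), and 25.5% of 978 TE subfamilies were called in that comparison. Leaving out WT Spg replicate 2 moved the log2 fold change of IAPLTR3 to 4.62 and that of IAPLTR3-int from 2.76 to 3.87. DESeq2 also called IAPLTR2a (log2 fold change 0.89, adjusted p = 0.00147), which edgeR did not (adjusted p = 0.0177). Ages and sorts differ between the stages, so that stage cannot be told apart from these.

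From KO Spg to KO Spc no subfamily was called by edgeR, against 1.43% of 978 tested. An unadjusted p under 0.05 was found for 4, and for 247 of all 978. The 4 were IAPLTR3 (log2 difference 2.08, SE 0.59, adjusted p = 0.0424), IAPLTR3-int, IAPLTR1_Mm (log2 difference 0.58, SE 0.24, adjusted p = 0.152) and IAPLTR1a_Mm, and DESeq2 called IAPLTR3. Without Spg WT replicate 2, which is in neither group but enters the joint fit of all libraries, edgeR called IAPLTR3 too (log2 fold change 2.03, adjusted p = 0.00455).

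Levels were set against the annotated length of each subfamily, in CPM per megabase on 1 scale for all 14 libraries. IAPLTR3 and IAPLTR3-int stood last by mean in Spc KO and first in Spc WT. In Spg their high means in WT rested on replicate 2. In Spg KO, IAPLTR1_Mm led at 217 ± 19.2 (SD, n = 3), followed by IAPLTR2_Mm at 92.5 ± 19.8 and IAPLTR2a at 59.0 ± 17.2, the first above the second in 3 of 3 libraries, then IAPLTR2b at 26.4 ± 3.30, IAPLTR1a_Mm at 19.5 ± 0.521 and IAPLTR2a2_Mm at 9.08 ± 1.57. IAPLTR4_I, IAPLTR4, IAPLTR3-int and IAPLTR3 closed the order, from 8.67 ± 0.845 down to 1.77 ± 0.812. In Spg WT, IAPLTR1_Mm at 14.9 ± 0.311 (SD, n = 3), IAPLTR2_Mm at 14.7 ± 3.91 and IAPLTR2a at 13.4 ± 4.00 lay close together, and no pair of them kept its order in 3 of 3 libraries. IAPLTR3-int at 15.1 ± 14.97 and IAPLTR3 at 12.4 ± 13.0 owed their means to WT replicate 2 and lay below IAPLTR1a_Mm (9.79 ± 0.312) and IAPLTR2b (8.85 ± 0.544) in the other 2 libraries. The lowest was IAPLTR4_I at 3.65 ± 2.45.

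Spc KO had IAPLTR1_Mm first at 324 ± 74.9 (SD, n = 4), then IAPLTR2_Mm at 71.5 ± 21.8 and IAPLTR2a at 53.5 ± 7.19, with IAPLTR3 last at 7.50 ± 1.98. IAPLTR2b and IAPLTR1a_Mm, both at 31.9 per megabase, do not differ beyond their spread, while IAPLTR2_Mm was above IAPLTR2a in 4 of 4 libraries. In Spc WT, IAPLTR3 was first at 131 ± 16.6 and IAPLTR3-int next at 102 ± 29.9, in that order in 4 of 4 libraries. IAPLTR1_Mm was the fifth by its mean, at 15.7 ± 4.23. It does not differ beyond the spread from its neighbours IAPLTR2_Mm (22.1 ± 12.6) and IAPLTR2b (13.4 ± 6.08). As a share of all IAPLTR counts, IAPLTR1_Mm held 53.2% ± 1.61 (SD, n = 3) in Spg KO, 14.7% ± 6.04 (SD, n = 3) in Spg WT, 60.5% ± 5.38 (SD, n = 4) in Spc KO and 3.39% ± 1.11 (SD, n = 4) in Spc WT. IAPLTR3-int held 65.9% ± 2.62 (SD, n = 4) in Spc WT and 4.72% ± 0.881 (SD, n = 4) in Spc KO.

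In the copy tables an LTR was taken as proviral where an IAP internal part lay on the same strand within 100 bp, and as solo otherwise. LTRs of truncated proviruses, or LTRs annotated in pieces, can be counted as solo by this rule. IAPLTR1_Mm copies were almost all proviral, with 718 at a 5′ end, 707 at a 3′ end, 7 with an internal part on both sides and 60 solo out of 1492. IAPLTR2_Mm had 577 solo copies of 1388 (41.6%), IAPLTR2a 339 of 627 (54.1%) and IAPLTR2b 584 of 1017 (57.4%). Reads on a single copy are those the counting program assigned to it; near-identical copies share reads, so that the split among copies is uncertain.

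Over the 8 LTR subfamilies together, the share of reads on proviral LTRs was not shown to differ between genotypes. It was 69.2%, 78.5% and 71.9% in Spg KO and 74.4%, 78.0% and 73.7% in Spg WT (exact permutation p = 0.5), and 81.1% ± 4.41 (SD, n = 4) in Spc KO and 78.2% ± 2.10 (SD, n = 4) in Spc WT (exact permutation p = 0.257). IAPLTR1_Mm and IAPLTR2_Mm, the LTRs with most reads in the KO, differed in opposite directions.

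In IAPLTR2_Mm a smaller share of the reads lay on proviral LTRs in the KO. It was 29.9%, 49.2% and 39.5% in Spg KO and 64.4%, 78.0% and 69.4% in Spg WT, with no overlap (exact permutation p = 0.1, the smallest possible). In Spc it was 47.3%, 38.1%, 41.6% and 45.1% in KO and 91.1%, 87.5%, 93.3% and 85.5% in WT, 46.3 points apart and without overlap (exact permutation p = 0.0286, the smallest possible, adjusted 0.0857 over 6 shares). In summed reads, solo IAPLTR2_Mm copies held 5942 in Spg KO and 401 in Spg WT, and 5207 in Spc KO and 170 in Spc WT. The 5′ LTRs held 1050 and 298 in Spg and 1012 and 548 in Spc, and the 3′ LTRs 2576 and 697, and 2717 and 1184. In Spc WT, 819 of the 1184 reads on 3′ LTRs lay on a single copy, dup1103.

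IAPLTR2a and IAPLTR2b showed the same kind of values, given without a test. Solo IAPLTR2a reads were 1764 in Spg KO and 241 in Spg WT, and 1626 in Spc KO and 108 in Spc WT. Solo IAPLTR2b reads were 1041 and 143 in Spg, and 1427 and 203 in Spc. Solo LTRs held 75.3% of IAPLTR2a reads in Spg KO and 50.0% in Spg WT, and 77.2% of IAPLTR2b reads in Spg KO and 34.3% in Spg WT.

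IAPLTR1_Mm went slightly the other way, from a proviral share of 95.0% ± 2.57 (SD, n = 3) in Spg WT to 98.9% ± 0.224 (SD, n = 3) in Spg KO (exact permutation p = 0.1) and from 96.8% ± 1.71 to 99.1% ± 0.299 in Spc (SD, n = 4, exact permutation p = 0.0286, adjusted 0.0857). Within its proviral reads the 5′ LTRs held 12012 and the 3′ LTRs 7548 in Spg KO, and 19663 and 15521 in Spc KO. The 5′ LTR was thus the better covered end in KO, and also in Spc WT, with 530 reads against 400 on 3′ LTRs. In Spg WT the 3′ LTRs held 571 and the 5′ LTRs 534.

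IAPLTR3 reads in Spc WT lay more on 3′ LTRs than on other positions through a single insertion. There its 3′ LTRs held 3199 reads, its solo LTRs 1550 and its 5′ LTRs 929, but the 3′ LTR of the dup82 provirus on chromosome 7 alone held 2197 of the 3199, and without it solo LTRs held more reads than 3′ LTRs. In Spc KO only 466 reads were left, 380 of them on solo LTRs.

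**Figure D3:**
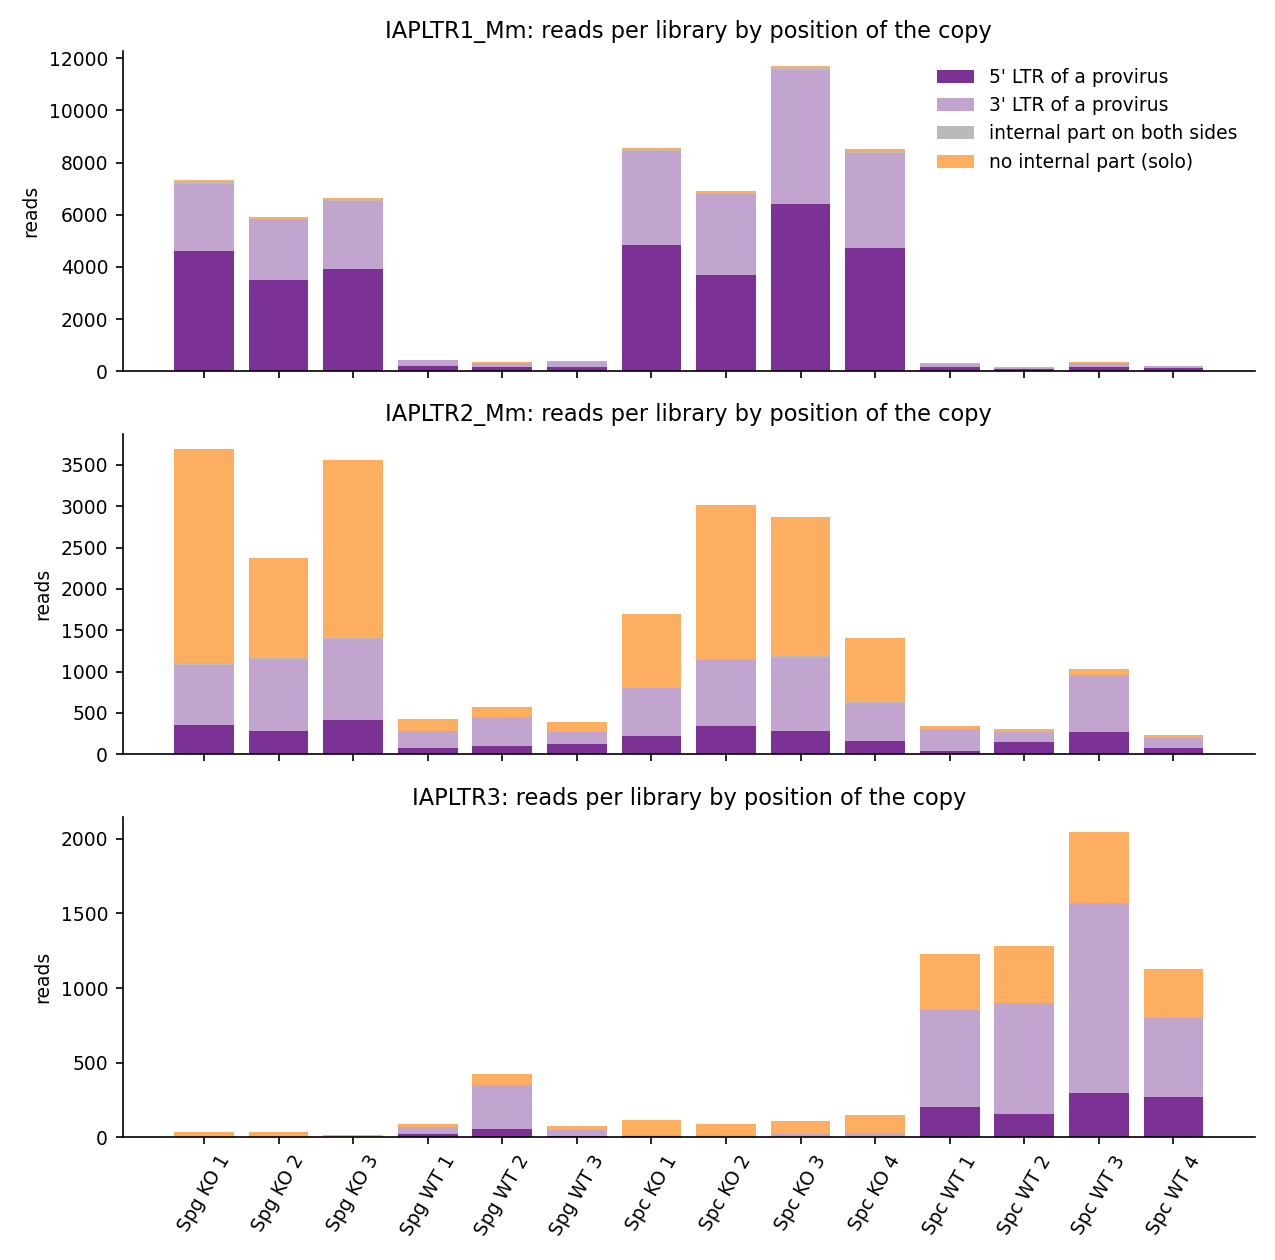
Reads per library on IAPLTR1_Mm, IAPLTR2_Mm and IAPLTR3 copies, stacked by whether the copy is the 5′ LTR of a provirus, the 3′ LTR, has an internal part on both sides or has none (solo). IAPLTR1_Mm reads are almost wholly proviral, IAPLTR2_Mm reads in KO are mostly solo, and IAPLTR3 reads in Spc WT are mostly on 3′ and solo LTRs, 2197 of the 3′ reads being those of dup82.

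In IAPLTR1_Mm, IAPLTR2_Mm and IAPLTR2a2_Mm a larger share of copies had a read in KO than in WT. At least 1 read in any library was found for 47.3% of IAPLTR1_Mm copies in Spg KO and 12.9% in Spg WT, and for 59.2% in Spc KO and 11.3% in Spc WT. IAPLTR2_Mm had 44.5% and 11.5% in Spg and 45.5% and 10.2% in Spc, and IAPLTR2a2_Mm 11.9% and 9.54% in Spg and 19.3% and 12.1% in Spc. The most-read IAPLTR1_Mm copy held 5.05% of its reads in Spg KO and 3.57% in Spc KO, whereas 1 IAPLTR3 copy held 38.7% of IAPLTR3 reads in Spc WT and 1 IAPLTR2_Mm copy held 43.0% of IAPLTR2_Mm reads in Spc WT. More reads in a group let more copies be seen, and these shares are not corrected for that. Near-identical copies share reads, so that a copy with a read is not shown to be transcribed. Over both genotypes, 2790 of the 11429 copies had a read in Spg and 3494 in Spc. Among all 3725827 TE copies, 562637 had a read in Spg and 681997 in Spc.

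A stricter count asks for a read in every KO library and in no WT library. In Spg 331 of the 11429 copies met it (2.90%), against 0.318% of all TE copies, and in Spc 293 did (2.56%), against 0.606%. IAPLTR1_Mm gave 136 of them in Spg and 161 in Spc, IAPLTR2_Mm 130 and 78, IAPLTR2a 37 and 21, and IAPLTR2a2_Mm 3 and 2. At both stages 146 copies met it, 80 of them IAPLTR1_Mm and 43 IAPLTR2_Mm. The reverse, a read in every WT library and in no KO library, held for 19 copies in Spg (0.166%, against 0.0627% of all TE copies) and 38 in Spc (0.332%, against 0.186%), of which IAPLTR3 gave 3 in Spg and 11 in Spc and IAPLTR3-int 10 and 13.

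Reads were also compared copy by copy between stages. Over the 367 IAPLTR1_Mm copies with at least 20 reads in KO, the log2 reads of Spg KO and Spc KO had a Pearson r of 0.62, and over 210 IAPLTR2_Mm copies r was 0.46. Over 24 IAPLTR3 copies in WT r was 0.78. IAPLTR3-int had r of 0.65 over 49 copies in WT and 0.49 over 31 copies in KO, and IAPLTR2b 0.51 over 29 copies in KO. Low or negative values were also found. In KO, r was −0.016 over 24 IAPLTR2a2_Mm copies and −0.39 over 6 IAPLTR3 copies. In WT it was negative in 5 of 8 subfamilies, from −0.32 in IAPLTR2a to −0.50 in IAPLTR2b, with IAPLTR1_Mm at −0.48 over 26 copies. Copies were kept on the sum of reads in both stages. These are descriptions across copies, which share libraries, length and assignable sequence between the stages, and copies are not replicates.

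Tested copy by copy, no IAPLTR copy was called in Spg by limma on log2(rescaled TPM + 0.1), out of 804 that passed the filter, against 0.0157% of 255256 TE copies; 319 of the 804 had an unadjusted p under 0.05, as did 14585 of the 255256. On the reads recovered from the TPM, edgeR called 135 higher and 15 lower in the same copies, against 1.48% and 0.179% of all copies tested, so that the Spg count rests on the test used. In Spc limma called 246 higher and 38 lower of 929 that passed, against 9.60% and 2.73% of 257702. The count fell to 169 in all without Spc WT replicate 1 and to 175 without WT replicate 4. The filter is on the mean over all libraries of a stage, so that a copy high in 1 group only can pass through that group, and nothing is read from a median over these copies.

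In Spc the 246 copies called higher were 155 IAPLTR1_Mm, 48 IAPLTR2_Mm, 13 IAPLTR2a, 12 IAPLTR1a_Mm, 12 IAPLTR2b, 5 IAPLTR3-int and 1 IAPLTR3. The 38 called lower were 15 IAPLTR3-int and 11 IAPLTR3 copies, 3 each of IAPLTR2_Mm, IAPLTR2a2_Mm and IAPLTR2b, 2 of IAPLTR1_Mm and 1 of IAPLTR1a_Mm. IAPLTR1_Mm, which rose as a subfamily, held 2 copies called lower of 418 tested, where 2.73% of all TE copies tested were. IAPLTR3-int, which fell, held 5 called higher of 49 tested, where 9.60% of all TE copies tested were.

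The most-read IAPLTR1_Mm copy in both KO groups was dup1024, the 5′ LTR of a provirus of 5173 bp at chr11:51665046-51670218 on the minus strand, in intergenic sequence 12201 bp from D930048N14Rik. The LTR itself had 355, 259 and 391 reads in Spg KO and 2, 0 and 8 in Spg WT, and 275, 339, 337 and 325 in Spc KO and 0, 0, 2 and 1 in Spc WT. In Spc it was called (difference 9.03 on the log2(rescaled TPM + 0.1) scale, SE 0.82, adjusted p = 1.04e-04, limma), a size that depends on the pseudocount because WT was near 0. In Spg its adjusted p was 0.0132 by limma and 1.54e-17 by edgeR on recovered reads. The whole provirus held 4609, 3365 and 3862 reads in Spg KO and 124, 35 and 25 in Spg WT, and 2324 to 4516 in Spc KO and 1 to 30 in Spc WT.

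Other IAPLTR1_Mm proviruses varied in their WT reads, and some had few or none. The whole provirus of dup255 held 772 to 1253 reads in Spg KO and 22, 137 and 93 in Spg WT. That of dup699, at chr8:72228229-72232950, held 530 to 826 in Spg KO and 46, 13 and 16 in Spg WT. The provirus of dup1475, 4846 bp at chr19:41468117-41472962, held 920, 1032 and 950 reads in Spg KO and 0 in each Spg WT library, and 843 to 1871 in Spc KO and 0 to 2 in Spc WT. The provirus of dup1315 at chr16:12976328-12981611 had 268 to 380 reads in Spg KO, 0 to 6 in Spg WT, 257 to 732 in Spc KO and 0 in all 4 Spc WT libraries. A count of 0 allows up to 3 reads in a library, for counting error only.

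Some of these proviruses lie within genes. The provirus of dup705, 5361 bp at chr8:94616512-94621872, lies in an intron of Rspry1 on the opposite strand and held 904 to 1337 reads in Spg KO, 1 to 8 in Spg WT, 960 to 1319 in Spc KO and 0 in Spc WT. Rspry1 itself was not called (log2 differences −0.25 in Spg and 0.07 in Spc, adjusted p = 0.944 and 0.778, edgeR). The provirus of dup255 at chr3:51239968-51245301 has its 5′ LTR in an exon of Noct, a gene of the circadian output, on the same strand, with 205, 120 and 165 LTR reads in Spg KO and 0, 30 and 7 in Spg WT; Noct had log2 differences of 0.50 (adjusted p = 0.202, edgeR) in Spg and 0.67 (adjusted p = 0.0149, edgeR) in Spc. Reads from Noct and from that LTR cannot be fully told apart.

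Over all 1492 IAPLTR1_Mm copies, 68.5% are intergenic, 19.3% lie in introns on the opposite strand and 8.11% in introns on the same strand. Reads followed this in Spg KO, with 59.0% intergenic, 26.7% intronic opposite and 9.39% intronic on the same strand. In Spg WT the introns on the same strand took 29.9% of the few IAPLTR1_Mm reads, and in Spc WT 20.8%, where unspliced host transcripts and the LTR cannot be told apart. IAPLTR3 copies were 92.2% intergenic.

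The IAPLTR2_Mm copy with most WT reads, dup1103, went against its subfamily. It is the 3′ LTR of a provirus of 4431 bp at chr14:24412762-24417192 on the minus strand, 11932 bp from Gm41109. It had 0 reads in all 7 KO libraries, 7, 192 and 32 in Spg WT, and 174, 65, 524 and 56 in Spc WT, and was called lower in Spc (adjusted p = 1.70e-04, limma). The whole provirus held 22 to 28 reads in Spg KO, 107, 952 and 113 in Spg WT, 15 to 53 in Spc KO and 968, 1053, 3760 and 695 in Spc WT.

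Leading IAPLTR3 insertions had the same pattern. The provirus of dup82, 3180 bp at chr7:60973781-60976960 on the plus strand, is made of IAPLTR3 and IAPLTR3-int pieces, held 0 reads in all 3 Spg KO libraries and 95, 431 and 60 in Spg WT, and 7, 8, 7 and 9 in Spc KO and 1769, 1679, 2463 and 1477 in Spc WT. The provirus of IAPLTR3-int dup87 at chr6:68798863-68802514 held 0 to 9 reads in Spg KO, 110 to 1225 in Spg WT, 6 to 28 in Spc KO and 1401 to 4759 in Spc WT. A solo IAPLTR3 copy, dup76 at chr7:33653170-33653495, had 191, 80, 103 and 167 reads in Spc WT and 0 in Spc KO; it lies in an exon of Gm12763 and Scgb2b23-ps on the same strand, and the count of its host was lower in Spc KO as well (log2 difference −9.94, adjusted p = 4.20e-06, edgeR).

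**Figure D4:**
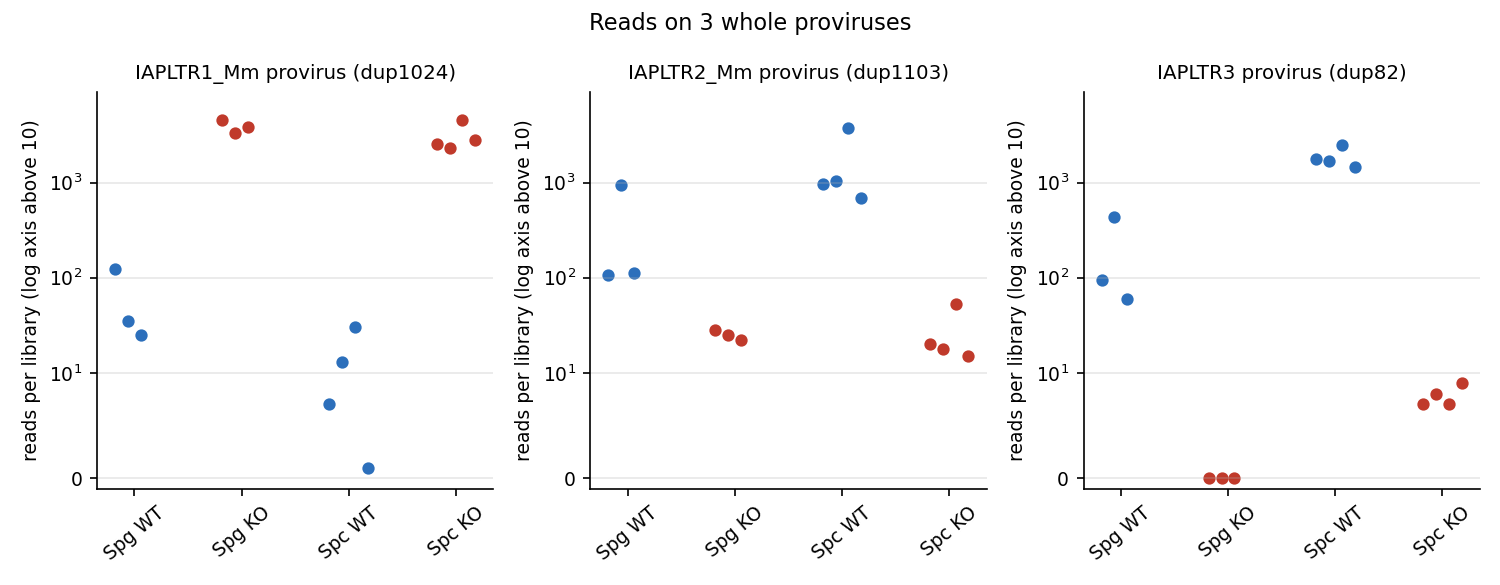
Reads per library on 3 whole proviruses, those of IAPLTR1_Mm dup1024, IAPLTR2_Mm dup1103 and IAPLTR3 dup82, by stage and genotype (axis linear up to 10 reads and logarithmic above). The first is read in KO (2324 to 4609 reads) and the other 2 in WT, where Spg WT replicate 2 is the highest Spg library for both.

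IAPLTR3 and markers of pachytene spermatocytes were both higher in Spc WT than in Spc KO. Summed over 6 such markers, on 1 scale for all 14 libraries, Spg WT libraries had 333, 1263 and 165 CPM and Spg KO libraries 94.6 to 122 CPM, and IAPLTR3 had 1.68, 8.74 and 1.44 CPM in the same Spg WT libraries and 0.266 to 0.736 CPM in Spg KO. WT replicate 2 is the highest Spg library in both. In Spc, IAPLTR3 had 38.4 to 49.6 CPM in WT and 1.63 to 3.16 CPM in KO, beside pachytene sums of 8156 to 15754 and 138 to 326 CPM. Among the Spc WT libraries the order went the other way, since replicate 3 had the highest IAPLTR3 level, 49.6 CPM, and the lowest pachytene sum, 8156 CPM. Spermatid markers summed to 62.4 to 1458 CPM in Spc WT and 2.35 to 10.8 CPM in Spc KO. The part of cell composition in the IAPLTR3 difference was not tested.

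**Figure D5:**
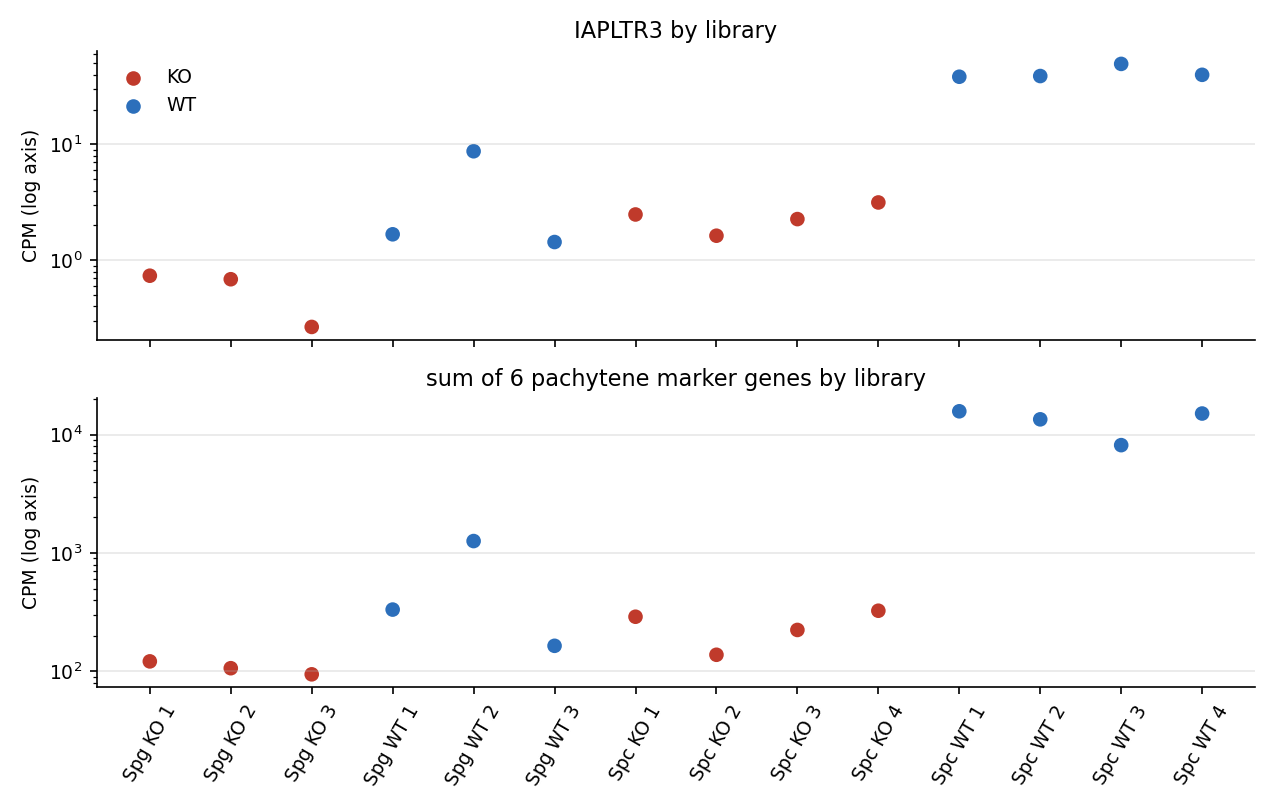
IAPLTR3 level (upper panel) and summed level of 6 pachytene marker genes (lower panel) in each library, in CPM on log axes, KO in red and WT in blue. Both are high in the 4 Spc WT libraries and in both panels Spg WT replicate 2 is the highest of the Spg libraries, at 8.74 and 1263 CPM.

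IAPLTR1_Mm had other values beside those markers. It was 128 to 229 CPM in Spc KO and 5.33 to 10.7 CPM in Spc WT, and in Spg 108 to 129 CPM in KO and 8.06 to 8.38 CPM in WT, so that Spg WT replicate 2 at 8.12 CPM lay between its fellow libraries. The Spg markers of other cell types showed no call, with 0 of 8 spermatogonial, 0 of 6 early meiotic, 0 of 6 pachytene and 0 of 6 Sertoli markers passing between genotypes by edgeR, where 9 of 20659 genes passed. Pachytene markers had large differences without a call, among them Adam2 (log2 difference −6.41, adjusted p = 0.0493, edgeR), Ldhc (−6.42, adjusted p = 0.0644) and Piwil1 (−4.07, adjusted p = 0.0980). In Spc, 7 of 8 spermatogonial, 2 of 6 Sertoli, 5 of 5 Leydig, 3 of 4 peritubular and 4 of 4 macrophage markers were called higher in KO, where 6145 of 21919 genes were, and 5 of 6 pachytene and 6 of 6 spermatid markers lower, where 6740 genes were. Of 6 early meiotic markers 2, Dmc1 and Meiob, were called higher and 1, Spo11, lower; their part in the IAPLTR differences was not tested.

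Genes listed as possible regulators of IAP elements were read from the same fits, in CPM scaled within each stage. Their action on these elements was not tested. None of the 19 tested passed in Spg by edgeR, where 9 of 20659 genes did. The list held 4 candidate activators and 6 genes of DNA methylation. It also held 3 of silencing through KRAB zinc-finger proteins and histone H3 lysine methylation, and 6 of the piRNA pathway. Nrf1 had 81.5 ± 3.18 CPM in Spg KO and 76.7 ± 9.71 in Spg WT (SD, n = 3, log2 difference 0.09, adjusted p = 1.00, edgeR), and in Spc 44.1 ± 6.95 and 31.9 ± 8.16 (SD, n = 4, log2 difference 0.47, adjusted p = 0.106, edgeR).

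In Spc 12885 of 21919 genes tested were called, and 10 of the 19 were among them. Among candidate activators Creb1, whose protein binds the cAMP response element, was higher in KO (log2 fold change 0.80). Crem, its germ cell relative, was lower (log2 fold change −3.50). Among DNA methylation genes Dnmt3a (2.84) and Dnmt3b (1.97), the other de novo methyltransferases, were higher and Dnmt3l (−2.45), their cofactor, and Uhrf1 (−0.78), which brings Dnmt1 to DNA, were lower, as log2 fold changes. Trim28, the corepressor of KRAB zinc-finger proteins, was lower (−1.49), and in the piRNA pathway Mael (−3.31) and Tdrd9 (−2.47) were lower and Tex15 (2.54) higher. These changes stand beside the shift in marker genes between Spc KO and WT, and their part in it was not tested.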

How the data were processed

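Polyadenylated RNA of 14 sorted germ cell samples was sequenced as stranded paired reads. Per the labels and the study's methods, the authors aligned reads to GRCm38 with STAR 2.7.3a, kept up to 100 alignments per read, and counted with TEtranscripts 2.2.3 and GENCODE M25; the deposited values per gene and TE subfamily are raw counts. The deposited TPM per TE copy were made by the authors from TElocal 1.1.1 and sum over the copies of a library. Columns of the authors' own DESeq2 comparisons (fold changes and p-values) were not used. One Spg replicate of each genotype, left out for RNA quality, was not analysed here.

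Counts were tested with edgeR 4.0.16 (TMM over genes and TE subfamilies, filterByExpr, quasi-likelihood, adjusted p under 0.01), each stage alone and all 14 libraries for the interaction and the stage comparisons. TPM of a library were multiplied by its share of TE counts, filtered at a mean of 0.5 and tested with limma 3.58.1 on log2(TPM + 0.1). All TPM values came out as whole reads within 0.001 (100% of values), and these reads were used for sums per copy. Ratios and shares were tested by two-sided exact permutation over libraries. Scripts were tested on simulated data. DESeq2 1.42.0, other scalings, filters and pseudocounts, and leaving out each library were the alternatives.

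Same-numbered Spg libraries of both genotypes had deviations with r of 0.767, 0.152 and 0.326. KO replicate 2 was more like WT replicate 3 (r = 0.337) than WT replicate 2, so that pairing by number is not settled. The labels give the numbers, and cells came from littermates. Where nothing states that samples came from separate animals, p-values measure only the spread between these samples. Spc replicates 1 and 4 were alike within each genotype (chi-square per degree of freedom 13.0 in KO and 17.5 in WT, other pairs at least 143 and 202), but differed by more than sampling noise and stayed separate.

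All IAPLTR subfamilies are named, with the copies of largest called rise or fall and highest TPM in each stage. The members and lists were chosen with earlier results of these data known. Sequences of the highest copies could not be read without a genome, so copies covered by transcripts or promoter windows were read instead.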

Additional observations from a re-analysis of the deposited data

Results flagged for a closer look

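Spc WT replicate 3 stood apart from the other 3 Spc WT libraries in 2 of the 10 subfamilies, on CPM scaled within the stage. IAPLTR2_Mm was 21.6 CPM there and 7.92 to 9.98 CPM in the other 3, and IAPLTR3-int was 212 CPM there and 126 to 133 CPM in the other 3. In both the gap to the nearest library was a large part of the whole range of the group, 0.850 and 0.917 of it, above Dixon's critical value for 4 samples. Over 20 groups of 4 libraries looked at, chance gives about 1 in 20. On the scale of all 14 libraries, the same library had the highest sum of spermatid markers of the Spc WT libraries, 1458 CPM against 62.4 to 497, and the lowest pachytene sum, 8156 CPM against 13473 to 15754; the part of these in its IAPLTR levels was not tested.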

How the results depend on the processing

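In Spg, 1 IAPLTR subfamily was called; DESeq2 called 7, edgeR with DESeq2 size factors, with TMM over genes alone or with library sizes before the filter 2, no filter 3, a threshold of 0.05 2 and the replicate block 2, while leaving out 1 library gave 1 to 2. In Spc, 7 were called. Summing replicates 1 and 4 gave 3, an alternative chosen after seeing the data, like the library sizes before the filter and the recovered reads. Leaving out 1 library gave 3 to 9. The replicate block gave 5, where same-numbered libraries had r between 0.0211 and 0.217. DESeq2, edgeR with DESeq2 size factors, library totals and a threshold of 0.05 each added IAPLTR2b. No filter lost IAPLTR2a and IAPLTR4_I, and TMM over genes alone lost IAPLTR4_I. The interaction had 1 call by DESeq2 and 0 to 2 without 1 library; KO Spc against KO Spg had 1 by DESeq2, 1 at 0.05 and 0 to 1 without 1 library; WT Spc against WT Spg had 2, and 3 by DESeq2 or at 0.05. Spg copies, 0 by limma, were 18 with a pseudocount of 1, 14 with no filter, 7 at 0.05, 150 with edgeR on recovered reads and 0 to 1 without 1 library; Spc copies were 463 at 0.05 and 169 to 377 without 1 library. IAPLTR4 in Spg turned to −0.11 without KO replicate 2 (−0.11 to 0.46 over the libraries left out), and IAPLTR2a2_Mm in Spc to −0.023 without WT replicate 2 (−0.023 to 0.42). The cause of these changes was not tested. The Spc direction of every subfamily was kept with library totals, although the median gene then moved from 0.11 to 0.79 on the log2 scale. Depth limits IAPLTR4, IAPLTR4_I and most single copies, which have few or no reads in WT.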
